A study of Arabidopsis thaliana with 12 samples.

Results

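The WRKY transcription factors of Arabidopsis thaliana were followed across 4 groups of seedlings. Members were the genes whose symbol, in the annotation of the array's probes or in the reference gene table, is WRKY followed by digits only, with WRKY54 and WRKY70 left out. The array held 64 of them on 91 probes, out of 24716 genes with a name. WRKY12 (AT2G44745) had no probe named here, and genes of the family that carry other symbols, such as TTG2 and ABO3, lie outside the rule. The groups were a transformant called SvGRP at 150 mM NaCl, SvGRP at 0 mM, the wild type (WT, Col-0) at 150 mM and WT at 0 mM, with 3 arrays each. SvGRP carries an S. virginics gene (the species as the labels spell it) that encodes a glycine-rich RNA-binding protein. Its promoter and the number of transgenic lines are not given in the sources used here, and the transgene was not analysed here. Seedlings grew on MS medium, NaCl was the only agent the labels name, and whole plants were taken 24 h after the move to salt, at 6 days of age.

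WRKY proteins bind W-box elements in promoters through a domain that carries the amino acids that name them and a zinc finger. They are grouped by the number of such domains and the type of zinc finger. Group I has a pair of domains, groups IIa to IIe have a single one, and group III has a single one with another type of finger. Many members respond within hours to pathogens, salicylic acid, wounding or osmotic stress, and several act in salt tolerance, germination under abscisic acid, phosphate supply or leaf senescence.

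All levels below are log2 of the processed Cy3 signal minus the 75th percentile of the array, so 0 marks that percentile, and levels of different probes cannot be set against each other. A change is a difference of group means on this log2 scale, its error is the standard error (n = 3 arrays per group), and calls take a Benjamini-Hochberg adjusted p under 0.05 in limma over 26794 genes or unnamed probes. The 75th percentile of the raw signal ran from 3641 to 5676 over the 12 arrays. With 12 arrays, their number sets the precision. The labels do not say that replicates were grown separately, so the p-values measure a spread between samples that may be technical. The arrays lay on 3 slides. Slide 3 held all of SvGRP at 150 mM and replicate 3 of SvGRP at 0 mM, slide 2 held the other SvGRP arrays at 0 mM and WT replicates 2 and 3 at 150 mM, and slide 1 held WT replicate 1 at 150 mM and all of WT at 0 mM. At a given NaCl level the genotypes never shared a slide. A change called slide-fitted comes from the same model with slide as a further term. For salt it is then the value within slide 3 for SvGRP, which rests on 1 array at 0 mM, and within slide 1 for WT, which rests on 1 array at 150 mM. For a genotype difference, the fit joins SvGRP at 0 mM minus WT at 150 mM within slide 2 to 1 of these salt values. At 0 mM the WT salt value is added, and at 150 mM the SvGRP one, so each difference rests on such a single array. In whole seedlings, fewer cells of a type and less RNA per cell cannot be told apart. All 6 green tissue and all 6 root markers were above the dim threshold, the 20th percentile of the signal, on all 12 arrays, and of 5 seed and flower markers 1 was.

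Salt moved members of the family in both directions. Of 62 members tested, 29 rose in SvGRP, where 31% of all features were called higher, and 19 fell, where 37.8% of all features were called lower. In WT, 32 members rose (33.1% of all features) and 13 fell (30.2% of all features). At least 2-fold and called, 24 members were higher in SvGRP (9.14% of all features) and 22 in WT (8.67%), whereas 6 members were at least 2-fold lower in SvGRP (10.9%) and 2 in WT (6.2%). The family's median change was 0.16 in SvGRP and 0.49 in WT, beside -0.07 and 0.04 over all features. Arrays of the NaCl levels did not overlap for 77.4% of members in SvGRP, beside 74.7% of all features. In WT they did not overlap for 79% of members, beside 69.5% of all features. A lack of overlap by NaCl, given below for single members, was thus common over all features. WRKY34, known from pollen, and WRKY64 were below the dim threshold on all 12 arrays and were not tested. Of the 62, 54 were above that threshold on all 12 arrays, and among these 25 rose and 19 fell in SvGRP, and 27 rose and 13 fell in WT.

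**Figure D1:**
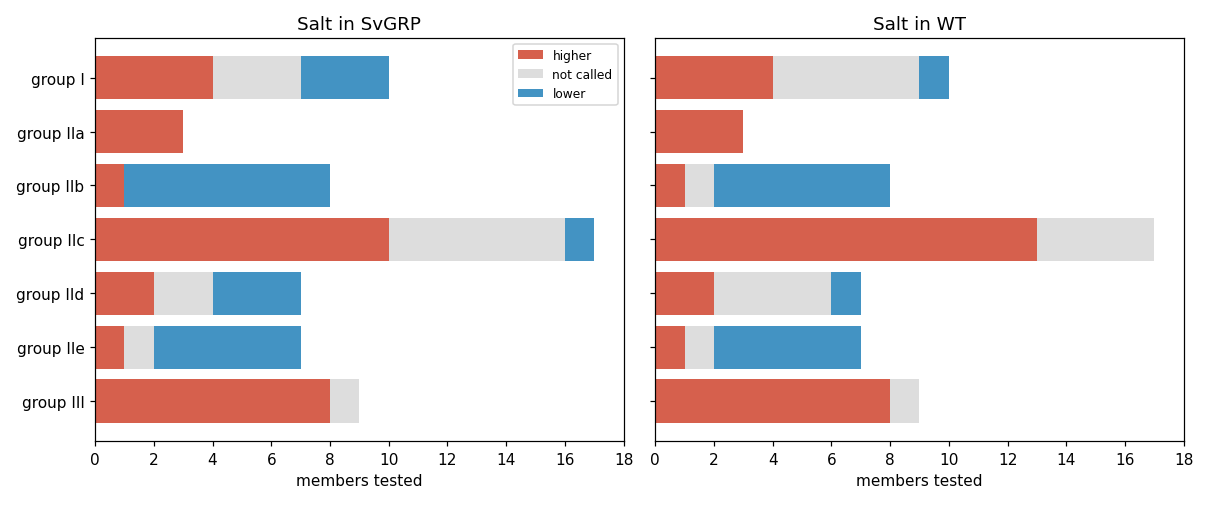
Number of WRKY members called higher, not called and called lower with salt, by subfamily, in SvGRP (left) and WT (right). Groups IIa and III were nearly all higher, and of groups IIb and IIe 7 and 5 members were lower in SvGRP and 6 and 5 in WT.

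The counts differed by subfamily. In SvGRP, all 3 members of group IIa and 8 of 9 of group III rose, with median changes of 2.32 and 2.49, and in WT the same counts rose, with medians of 1.61 and 2.36. With WRKY66, which SvGRP holds only as a bound, set to that bound, the SvGRP median of group III was 2.22. Of 17 group IIc members, 10 rose and 1 fell in SvGRP (median 1.23), and 13 rose in WT (median 0.99). WRKY59 of group IIc and WRKY66 and WRKY67 of group III were tested only because their arrays at 150 mM passed the dim threshold. Their rises follow in part from that filter and lend the counts and medians of these groups no support. Of 8 group IIb members, 7 fell in SvGRP (median -0.86) and 6 in WT (median -0.52), and of 7 group IIe members 5 fell in each genotype (medians -0.74 and -0.52). Scaling the arrays to their 8 E1A spike-in probes moved the median of all features to 0.16 for salt in SvGRP and 0.46 for salt in WT. The IIb and IIe falls were then 5 and 5 in SvGRP, but 1 and 1 in WT, where both medians were -0.10 and 2 IIe members were called higher. The WT falls that ended so in these 2 groups were those of WRKY9, WRKY14, WRKY27, WRKY35, WRKY36, WRKY47, WRKY61, WRKY69 and WRKY72, with values of -0.29 to 0.06. All 29 rises in SvGRP and all 32 in WT were called under the E1A scaling too, where 10354 and 16287 of 26794 features were higher. With slide in the fit, 29 and 27 of them were called, beside 25.3% and 22.5% of all features higher, and of the falls 15 in SvGRP and 11 in WT, beside 28.8% and 23.2% lower.

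A total of 29 members rose in both genotypes and 13 fell in both, and none was called in opposite directions. WRKY24, WRKY49 and WRKY56 were called higher in WT alone, and WRKY3, WRKY4, WRKY13, WRKY31, WRKY39 and WRKY74 were called lower in SvGRP alone. None of these 9 had a called difference between the genotypes' responses, so none was shown to respond in one genotype only. Among the 29 that rose in both, the rise was larger in SvGRP for 18 (64.7% of the 6850 features that rose in both), with medians of 2.32 in SvGRP and 2.07 in WT. Among the 13 that fell in both, the fall was larger in SvGRP for 11 (66.9% of 7104 features), with medians of -0.94 in SvGRP and -0.54 in WT.

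**Figure D2:**
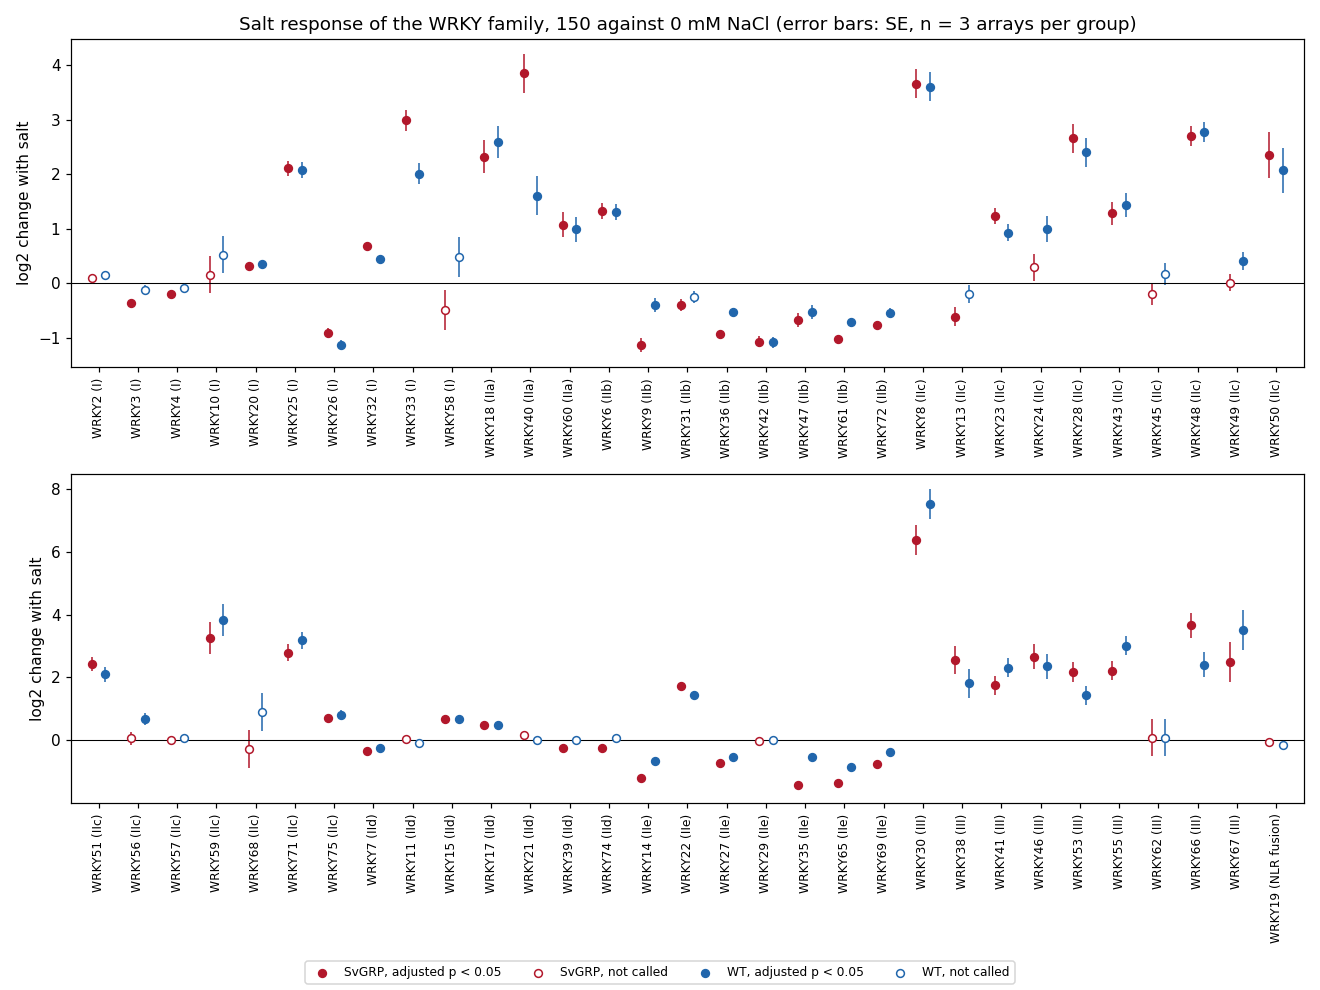
Log2 change with salt (150 against 0 mM NaCl) of each of the 62 members tested, in SvGRP (red) and WT (blue), with standard errors from 3 arrays per group. Filled points have an adjusted p under 0.05. WRKY30 stands highest in both genotypes, at 6.37 in SvGRP and 7.51 in WT, and WRKY35 in SvGRP (-1.43) and WRKY26 in WT (-1.14) stand lowest.

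Group I holds the best described salt regulators of the family. WRKY33 (AT2G38470), which mitogen-activated protein kinases phosphorylate and which drives camalexin synthesis and salt tolerance, stood at 1.68, 2.25 and 2.21 in SvGRP at 150 mM against -1.06, -0.83 and -0.95 in SvGRP at 0 mM, and 1.86, 2.03 and 1.82 in WT at 150 mM against 0.29, -0.25 and -0.37 in WT at 0 mM. All 6 arrays at 150 mM lay above all arrays at 0 mM, and the SvGRP arrays at 0 mM were the lowest of all. The rise was 2.99 ± 0.19 (adjusted p = 1e-06, slide-fitted 3) in SvGRP and 2.01 ± 0.19 (adjusted p = 1.6e-05, slide-fitted 1.97) in WT. WRKY25 (AT2G30250), its close relative in heat and salt tolerance, stood at 0.81, 1.5 and 1.27 in SvGRP at 150 mM against -0.97, -0.82 and -0.96 in SvGRP at 0 mM, and 1.17, 1.28 and 1.28 in WT at 150 mM against -0.81, -0.82 and -0.86 in WT at 0 mM. Its groups did not overlap by NaCl and the genotypes lay together at each level. The rise was 2.11 ± 0.14 (adjusted p = 1.3e-06, slide-fitted 2.16) in SvGRP and 2.08 ± 0.14 (adjusted p = 2.8e-06, slide-fitted 2) in WT.

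WRKY26 (AT5G07100), which acts with WRKY25 and WRKY33 in heat tolerance, went the other way and stood at -1.83, -1.51 and -1.54 in SvGRP at 150 mM against -0.64, -0.7 and -0.79 in SvGRP at 0 mM, and -1.96, -1.81 and -2.04 in WT at 150 mM against -0.73, -0.81 and -0.85 in WT at 0 mM. Every array at 150 mM was lower than every array at 0 mM. The change was -0.92 ± 0.09 (adjusted p = 1.5e-05, slide-fitted -0.84) in SvGRP and -1.14 ± 0.09 (adjusted p = 7e-06, slide-fitted -1.16) in WT, the most negative of the family in WT. Smaller rises were called for WRKY20 (0.32 ± 0.05 in SvGRP, 0.36 ± 0.05 in WT) and WRKY32 (0.69 ± 0.06 and 0.45 ± 0.06).

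WRKY4 (AT1G13960), which acts with WRKY3 in resistance to necrotrophic fungi, stood at -0.8, -0.72 and -0.62 in SvGRP at 150 mM against -0.54, -0.5 and -0.52 in SvGRP at 0 mM, and -0.84, -0.8 and -0.91 in WT at 150 mM against -0.83, -0.73 and -0.72 in WT at 0 mM. The SvGRP arrays at 0 mM were the highest 3. The salt change was -0.19 ± 0.06 (adjusted p = 0.014, slide-fitted -0.19 with adjusted p = 0.12) in SvGRP and -0.09 ± 0.06 (adjusted p = 0.2, slide-fitted -0.08) in WT, and under E1A scaling it was 0.04 in SvGRP and 0.34 in WT. WRKY3 changed by -0.37 ± 0.08 in SvGRP, a called fall, and by -0.12 ± 0.08 in WT, which was not called. Under E1A scaling these were -0.15 (adjusted p = 0.31) in SvGRP and 0.31 in WT. WRKY2 (AT5G56270), a regulator of germination and of the first division of the zygote, stood at -1.16, -0.94 and -0.85 in SvGRP at 150 mM against -1.06, -1.07 and -1.13 in SvGRP at 0 mM, and -0.61, -0.68 and -0.69 in WT at 150 mM against -0.81, -0.81 and -0.81 in WT at 0 mM. All WT arrays lay at or above -0.81 and all SvGRP arrays below it, and the salt change of 0.1 in SvGRP and 0.15 in WT was not called. WRKY10, known from the endosperm, and WRKY58, which damps systemic resistance, were not called for salt in either genotype, and WRKY10 was above the dim threshold on 8 of 12 arrays.

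Group IIa consists of WRKY18, WRKY40 and WRKY60, which form complexes with each other and act in basal defence and abscisic acid signalling. WRKY40 (AT1G80840) stood at -0.06, 0.32 and 0.87 in SvGRP at 150 mM against -3.75, -3.6 and -3.08 in SvGRP at 0 mM, and 0.37, -0.06 and 0.03 in WT at 150 mM against -0.71, -1.65 and -2.12 in WT at 0 mM. The NaCl levels did not overlap in either genotype, and the SvGRP arrays at 0 mM were all below the lowest WT array at 0 mM. The rise was 3.85 ± 0.36 (adjusted p = 8.6e-06, slide-fitted 3.46) in SvGRP and 1.61 ± 0.36 (adjusted p = 0.0029, slide-fitted 1.87) in WT. WRKY18 (AT4G31800) stood at 0.96, 1.78 and 1.74 in SvGRP at 150 mM against -0.93, -0.91 and -0.64 in SvGRP at 0 mM, and 2.7, 1.61 and 1.8 in WT at 150 mM against -0.25, -0.73 and -0.66 in WT at 0 mM. WT replicate 1 at 150 mM was the highest array and SvGRP replicate 1 the lowest of the salt-treated ones. The rise was 2.32 ± 0.3 (adjusted p = 7.4e-05, slide-fitted 2.14) in SvGRP and 2.59 ± 0.3 (adjusted p = 5.4e-05, slide-fitted 3.25) in WT.

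WRKY60 (AT2G25000), whose own promoter is a described target of WRKY18 and WRKY40, stood at 0.33, 0.91 and 0.67 in SvGRP at 150 mM against -0.35, -0.66 and -0.28 in SvGRP at 0 mM, and 0.57, 0.3 and 0.25 in WT at 150 mM against -0.11, -0.69 and -1.04 in WT at 0 mM. The groups did not overlap by NaCl within either genotype. The rise was smaller than for its partners, 1.07 ± 0.23 (adjusted p = 0.0021, slide-fitted 0.92) in SvGRP and 0.99 ± 0.23 (adjusted p = 0.0038, slide-fitted 1.19) in WT.

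**Figure D3:**
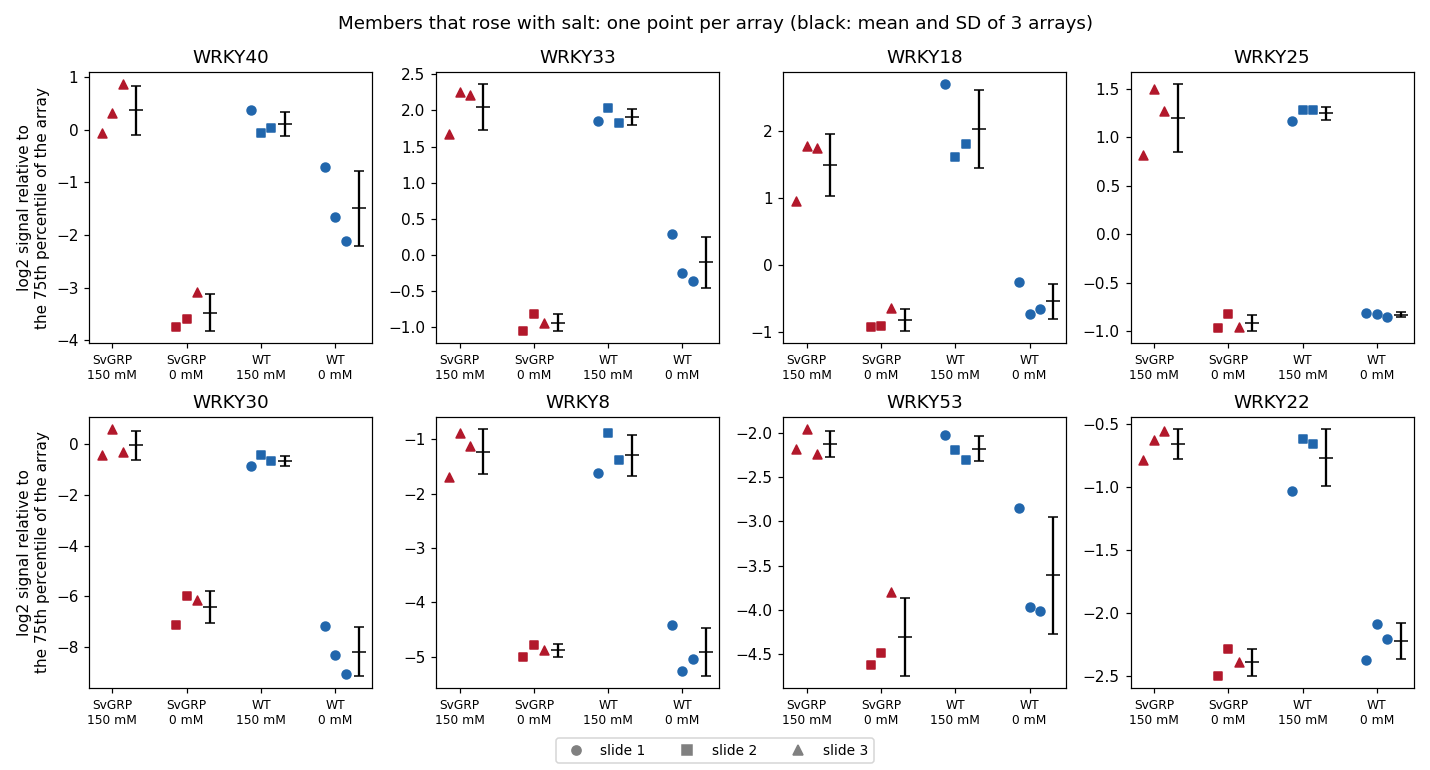
Log2 signal minus the array's 75th percentile for 8 members that rose with salt, 1 point per array, with the mean and SD of each group of 3 in black and the slide as the symbol. For WRKY40 and WRKY33 the SvGRP arrays at 0 mM lie below the WT arrays at 0 mM, while the groups at 150 mM overlap. Over all features, 50.3% had no overlap between the genotypes at 0 mM.

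In group IIb, WRKY6 alone rose. WRKY6 (AT1G62300), a regulator of senescence that represses the phosphate exporter gene PHO1, stood at 0.35, 0.82 and 0.88 in SvGRP at 150 mM against -0.63, -0.48 and -0.77 in SvGRP at 0 mM, and 0.43, 0.66 and 0.57 in WT at 150 mM against -0.6, -0.97 and -0.71 in WT at 0 mM. The treated arrays were higher than the untreated ones without overlap. The change was 1.32 ± 0.15 (adjusted p = 3.2e-05, slide-fitted 1.46) in SvGRP and 1.31 ± 0.15 (adjusted p = 4.8e-05, slide-fitted 1.19) in WT. WRKY42 (AT4G04450), its close relative and also a repressor of PHO1, stood at -7.39, -7.36 and -7.21 in SvGRP at 150 mM against -6.08, -6.29 and -6.38 in SvGRP at 0 mM, and -7.26, -7.19 and -7 in WT at 150 mM against -6.13, -6.16 and -5.94 in WT at 0 mM. All treated arrays were lower than all untreated ones. The treated values lay not far above the dim threshold, which was -7.66 to -7.54 in WT and -7.98 to -7.8 in SvGRP at 150 mM. The sizes of the WRKY42 falls are therefore less certain. It fell by nearly the same amount in both genotypes, with -1.07 ± 0.1 (adjusted p = 1.1e-05, slide-fitted -0.93) in SvGRP and -1.08 ± 0.1 (adjusted p = 1.7e-05, slide-fitted -1.19) in WT.

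WRKY9 (AT1G68150), described as an activator of suberin synthesis genes, stood at -1.64, -1.91 and -1.38 in SvGRP at 150 mM against -0.38, -0.61 and -0.51 in SvGRP at 0 mM, and -0.83, -0.95 and -0.98 in WT at 150 mM against -0.47, -0.68 and -0.43 in WT at 0 mM. The SvGRP arrays at 150 mM were the lowest 3 and did not overlap with any other group. The change was -1.14 ± 0.13 (adjusted p = 2.8e-05, slide-fitted -1.13) in SvGRP and -0.4 ± 0.13 (adjusted p = 0.02, slide-fitted -0.3 with adjusted p = 0.23) in WT. The WT value did not hold its call without WT replicate 1 or 3 at 0 mM or replicate 2 or 3 at 150 mM (log2 change -0.38 to -0.35, adjusted p up to 0.066), and it was 0.03 under E1A scaling.

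WRKY36 (AT1G69810), a described repressor of the light signalling gene HY5, stood at -2.15, -2.32 and -2.2 in SvGRP at 150 mM against -1.2, -1.26 and -1.39 in SvGRP at 0 mM, and -1.82, -1.74 and -1.79 in WT at 150 mM against -1.2, -1.34 and -1.23 in WT at 0 mM. The salt-treated SvGRP arrays were the lowest 3, and those of WT came next. The change was -0.94 ± 0.07 (adjusted p = 1.8e-06, slide-fitted -0.84) in SvGRP and -0.53 ± 0.07 (adjusted p = 9.2e-05, slide-fitted -0.56) in WT. WRKY61 (AT1G18860) stood at -3.21, -3.08 and -2.95 in SvGRP at 150 mM against -2.02, -2.12 and -2 in SvGRP at 0 mM, and -2.89, -2.88 and -2.86 in WT at 150 mM against -2.09, -2.33 and -2.06 in WT at 0 mM, with no overlap by NaCl, and fell in both genotypes, with -1.03 ± 0.08 (adjusted p = 4.1e-06, slide-fitted -1.07) in SvGRP and -0.72 ± 0.08 (adjusted p = 6.1e-05, slide-fitted -0.73) in WT. Also called lower in both genotypes were WRKY47 (-0.67 ± 0.13 in SvGRP, -0.52 ± 0.13 in WT) and WRKY72 (-0.77 ± 0.08 and -0.54 ± 0.08), a gene of basal resistance to nematodes. The slide-fitted value of WRKY47 in WT was not called (-0.42, adjusted p = 0.1), nor under E1A scaling in SvGRP (-0.44, adjusted p = 0.057).

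WRKY31 (AT4G22070), close to WRKY6 and WRKY42 in sequence, stood at -2.64, -2.58 and -2.32 in SvGRP at 150 mM against -2.09, -2.01 and -2.28 in SvGRP at 0 mM, and -2.7, -2.78 and -2.85 in WT at 150 mM against -2.38, -2.71 and -2.49 in WT at 0 mM. The SvGRP arrays at 0 mM were the highest 3. The change with salt was -0.39 ± 0.11 (adjusted p = 0.011, slide-fitted -0.23 with adjusted p = 0.24) in SvGRP, a called fall that ended under E1A scaling too (-0.16, adjusted p = 0.41), and -0.25 ± 0.11 (adjusted p = 0.074, slide-fitted -0.18) in WT, which was not called.

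Group IIc is the largest of the family. WRKY8 (AT5G46350), whose mutants are salt sensitive and whose activity the partner VQ9 restrains, stood at -1.69, -0.88 and -1.12 in SvGRP at 150 mM against -5.01, -4.78 and -4.87 in SvGRP at 0 mM, and -1.62, -0.89 and -1.38 in WT at 150 mM against -4.42, -5.27 and -5.05 in WT at 0 mM. The 6 treated arrays lay far above the 6 untreated ones, and the genotypes overlapped at each NaCl level. The rise was 3.66 ± 0.27 (adjusted p = 2.2e-06, slide-fitted 3.64) in SvGRP and 3.61 ± 0.27 (adjusted p = 4.6e-06, slide-fitted 3.29) in WT. WRKY28 (AT4G18170), described as an activator of salicylic acid synthesis, stood at -1.43, -0.53 and -0.34 in SvGRP at 150 mM against -3.32, -3.4 and -3.57 in SvGRP at 0 mM, and -1.3, -0.95 and -1.01 in WT at 150 mM against -3.28, -3.25 and -3.93 in WT at 0 mM. The NaCl levels did not overlap. The rise was 2.66 ± 0.27 (adjusted p = 1.7e-05, slide-fitted 2.8) in SvGRP and 2.4 ± 0.27 (adjusted p = 4.8e-05, slide-fitted 2.19) in WT.

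WRKY48, the repressor of basal defence in the same branch, rose by 2.7 ± 0.18 in SvGRP and 2.78 ± 0.18 in WT. WRKY71 (AT1G29860), which promotes shoot branching and flowering, stood at -3.88, -3.82 and -4.38 in SvGRP at 150 mM against -6.53, -7.21 and -6.69 in SvGRP at 0 mM, and -4.02, -3.8 and -3.63 in WT at 150 mM against -6.41, -7.39 and -7.22 in WT at 0 mM. Again the treated arrays lay above the untreated ones without overlap. The change was 2.78 ± 0.27 (adjusted p = 1.3e-05, slide-fitted 2.67) in SvGRP and 3.19 ± 0.27 (adjusted p = 9.4e-06, slide-fitted 2.99) in WT. WRKY23, which acts downstream of auxin in roots, rose by 1.23 ± 0.15 in SvGRP and 0.93 ± 0.15 in WT.

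WRKY59 (AT2G21900) stood at -4.91, -4.16 and -4.11 in SvGRP at 150 mM against -7.96, -6.56 and -8.43 in SvGRP at 0 mM, and -5.3, -3.97 and -5.04 in WT at 150 mM against -8.32, -8.31 and -9.15 in WT at 0 mM. All 3 WT arrays and 2 of the 3 SvGRP arrays at 0 mM were below the dim threshold. WRKY59 was at least 9.5-fold higher with salt in WT, with a fitted change of 3.83 ± 0.51 (adjusted p = 0.00013, slide-fitted 3.3), and its change was 3.26 ± 0.51 (adjusted p = 0.00027, slide-fitted 4.04) in SvGRP. WRKY75 (AT5G13080), a regulator of phosphate starvation responses and root hairs, stood at -0.85, -0.36 and -0.29 in SvGRP at 150 mM against -1.19, -1.2 and -1.27 in SvGRP at 0 mM, and -0.73, -0.57 and -0.66 in WT at 150 mM against -1.32, -1.58 and -1.51 in WT at 0 mM. The treated arrays were the higher ones in both genotypes. The rise was 0.72 ± 0.13 (adjusted p = 0.00076, slide-fitted 0.77) in SvGRP and 0.82 ± 0.13 (adjusted p = 0.00043, slide-fitted 0.74) in WT.

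WRKY50 and WRKY51, which mediate the repression of jasmonate signalling by salicylic acid, rose by 2.35 ± 0.42 and 2.42 ± 0.23 in SvGRP and by 2.07 ± 0.42 and 2.1 ± 0.23 in WT. WRKY50 was above the dim threshold on 10 of 12 arrays. WRKY43 rose by 1.28 ± 0.22 in SvGRP and 1.43 ± 0.22 in WT. WRKY57 (AT1G69310), a drought tolerance gene that also restrains leaf senescence under jasmonate, stood at -1.84, -1.6 and -1.5 in SvGRP at 150 mM against -1.57, -1.61 and -1.78 in SvGRP at 0 mM, and -1.72, -1.68 and -1.88 in WT at 150 mM against -1.71, -1.89 and -1.92 in WT at 0 mM. The 4 groups overlapped, and the change of 0.01 ± 0.1 (adjusted p = 0.96, slide-fitted 0.13) in SvGRP and 0.08 ± 0.1 (adjusted p = 0.54, slide-fitted 0.12) in WT was not called.

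WRKY49 (AT5G43290) stood at -4.06, -3.57 and -4.12 in SvGRP at 150 mM against -4.06, -3.78 and -3.93 in SvGRP at 0 mM, and -4.32, -4.17 and -4.01 in WT at 150 mM against -4.7, -4.37 and -4.67 in WT at 0 mM. The WT arrays at 0 mM were the lowest 3. The change was 0.01 ± 0.16 (adjusted p = 0.97, slide-fitted 0.02) in SvGRP, not called, and 0.41 ± 0.16 (adjusted p = 0.04, slide-fitted 0.26 with adjusted p = 0.39) in WT. The WT call ended without any 1 of WT replicates 1 and 3 at 0 mM, WT replicates 2 and 3 at 150 mM and SvGRP replicate 3 at 0 mM (0.34 to 0.41, adjusted p up to 0.13), and with quantile normalization (0.26, adjusted p = 0.18) or scaling to the array median (0.35, adjusted p = 0.082). WRKY24 and WRKY56, near relatives, changed by 0.99 ± 0.24 and 0.68 ± 0.2 in WT, both called, and by 0.29 ± 0.24 and 0.06 ± 0.2 in SvGRP, not called. Both WT calls ended once slide was fitted, at 1.03 (adjusted p = 0.0513) for WRKY24 and 0.61 (adjusted p = 0.14) for WRKY56, and the mean of all probes ended that of WRKY56 (0.51, adjusted p = 0.065). WRKY13, known from stem lignification, fell in SvGRP (-0.61 ± 0.17) and had a change of -0.2 ± 0.17 in WT, not called. The call ended under E1A scaling (-0.38, adjusted p = 0.1), in the fit that includes slide (-0.63, adjusted p = 0.077), and at the same size of -0.61 with only the groups compared. WRKY45, a phosphate uptake regulator, and WRKY68 were not called in either genotype.

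Group IId, whose members bind calmodulin, moved little. WRKY15, a gene of osmotic stress and growth, rose by 0.69 ± 0.12 in SvGRP and 0.68 ± 0.12 in WT, and WRKY17, which damps basal resistance, rose by 0.5 ± 0.12 and 0.49 ± 0.12. The slide-fitted WRKY17 value in WT was 0.19 and was not called (adjusted p = 0.15). WRKY7 was called lower in both, with -0.35 ± 0.07 in SvGRP and -0.23 ± 0.07 in WT. The WT value lost its call without WT replicate 2 at 0 mM or replicate 1 at 150 mM (-0.19 to -0.17, adjusted p up to 0.0527) and, at its size of -0.23, with only the groups compared, and was 0.20 under E1A scaling, where the SvGRP value was -0.12 (adjusted p = 0.32). WRKY39, a heat stress gene, and WRKY74 were called lower in SvGRP (-0.23 ± 0.07 and -0.25 ± 0.09) and had changes of 0 and 0.06 in WT, not called. The WRKY74 call ended without SvGRP replicate 1 or 3 at 0 mM or replicate 1 or 2 at 150 mM (-0.26 to -0.18, adjusted p up to 0.13), with quantile normalization (-0.23, adjusted p = 0.0523), without a dim filter (-0.25, adjusted p = 0.0508) and with the replicate block (-0.25, adjusted p = 0.064). The WRKY39 call ended in the fit that includes slide (-0.26, adjusted p = 0.067) and with only the groups compared (-0.23, adjusted p = 0.059), and under E1A scaling neither was called (0 for WRKY39 and -0.02 for WRKY74). WRKY11 and WRKY21 were not called in either genotype.

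Group IIe divided by member. WRKY22 (AT4G01250), which acts downstream of the flagellin receptor's kinase cascade, stood at -0.79, -0.63 and -0.56 in SvGRP at 150 mM against -2.5, -2.29 and -2.39 in SvGRP at 0 mM, and -1.03, -0.62 and -0.66 in WT at 150 mM against -2.37, -2.09 and -2.21 in WT at 0 mM. The treated arrays were above the untreated ones without overlap. The rise was 1.73 ± 0.12 (adjusted p = 1.5e-06, slide-fitted 1.72) in SvGRP and 1.45 ± 0.12 (adjusted p = 7.4e-06, slide-fitted 1.19) in WT. WRKY29 (AT4G23550), placed beside WRKY22 in that cascade, stood at 0.3, 0.48 and 0.31 in SvGRP at 150 mM against 0.33, 0.46 and 0.3 in SvGRP at 0 mM, and -0.28, 0.05 and 0.09 in WT at 150 mM against 0, -0.09 and -0.08 in WT at 0 mM. Its arrays parted by genotype and not by NaCl, with all 6 SvGRP arrays above all 6 WT arrays. The salt change of -0.01 ± 0.1 (adjusted p = 0.96, slide-fitted 0.06) in SvGRP and 0.01 ± 0.1 (adjusted p = 0.93, slide-fitted -0.22) in WT was not called.

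The other 5 members of group IIe fell in both genotypes. WRKY35 (AT2G34830) stood at -3.48, -3.7 and -3.34 in SvGRP at 150 mM against -2.04, -2.07 and -2.12 in SvGRP at 0 mM, and -2.56, -2.59 and -2.59 in WT at 150 mM against -2.13, -2.07 and -1.94 in WT at 0 mM. The untreated arrays of both genotypes lay together, the treated WT arrays below them, and the treated SvGRP arrays lower still. The change was -1.43 ± 0.08 (adjusted p = 7.9e-07, slide-fitted -1.39) in SvGRP and -0.54 ± 0.08 (adjusted p = 0.00037, slide-fitted -0.52) in WT. WRKY14 (AT1G30650) stood at -2.68, -2.96 and -2.45 in SvGRP at 150 mM against -1.48, -1.52 and -1.46 in SvGRP at 0 mM, and -2.33, -2.26 and -2.3 in WT at 150 mM against -1.62, -1.66 and -1.63 in WT at 0 mM. The same order of the treated groups was seen, without overlap. The change was -1.21 ± 0.1 (adjusted p = 5.4e-06, slide-fitted -1.23) in SvGRP and -0.66 ± 0.1 (adjusted p = 0.00036, slide-fitted -0.69) in WT.

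WRKY65 (AT1G29280) stood at -0.44, -0.94 and -0.34 in SvGRP at 150 mM against 0.8, 0.75 and 0.78 in SvGRP at 0 mM, and -0.09, 0.1 and -0.1 in WT at 150 mM against 0.77, 0.89 and 0.82 in WT at 0 mM. The treated SvGRP arrays were the lowest 3. The change was -1.35 ± 0.13 (adjusted p = 1.3e-05, slide-fitted -1.35) in SvGRP and -0.86 ± 0.13 (adjusted p = 0.00034, slide-fitted -0.92) in WT. WRKY69 (AT3G58710) stood at -1.43, -1.5 and -1.2 in SvGRP at 150 mM against -0.6, -0.59 and -0.72 in SvGRP at 0 mM, and -0.8, -0.81 and -0.88 in WT at 150 mM against -0.48, -0.49 and -0.43 in WT at 0 mM. Its treated SvGRP arrays were again the lowest 3, and the change was -0.74 ± 0.08 (adjusted p = 1.7e-05, slide-fitted -0.65) in SvGRP and -0.36 ± 0.08 (adjusted p = 0.0021, slide-fitted -0.33) in WT, where it was 0.06 under E1A scaling. WRKY27, known from the symptoms of bacterial wilt, was called lower with -0.71 ± 0.09 in SvGRP and -0.52 ± 0.09 in WT.

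Root markers fell with salt in SvGRP (median change -1.25), but in WT their median change was 0.07. Their summed level, on a linear scale with the array's 75th percentile as 1, was 1.66 to 2.02 in SvGRP at 150 mM against 2.85 to 3.27 in SvGRP at 0 mM, and 2.62 to 2.89 in WT at 150 mM against 2.63 to 3.15 in WT at 0 mM. Of the 6 root markers, 5 were called lower with salt in SvGRP and 2 in WT, and 3 responded more negatively in SvGRP than in WT, namely COBL9 (-2.89 ± 0.52), EXPA7 (-2.62 ± 0.6) and RHD2 (-1.03 ± 0.26). Once slide was fitted these 3 responses were -2.32, -1.97 and -0.68 and none was called (adjusted p = 0.28, 0.39 and 0.49), and the salt falls of EXPA7 (-1.14, adjusted p = 0.14) and RHD2 (-0.5, adjusted p = 0.13) in SvGRP were not called. In WT, COBL9 (0.65), EXPA7 (0.92) and RHD2 (0.23) were not called for salt, while SCR, SHR and HKT1 had negative changes. The part of root markers in the falls of groups IIb and IIe was not tested. Green tissue markers summed to 248 to 276 in SvGRP at 150 mM against 295 to 308 in SvGRP at 0 mM, and to 253 to 263 in WT at 150 mM against 338 to 385 in WT at 0 mM. Seed and flower markers summed to 0.0745 to 0.0982 in SvGRP at 150 mM against 0.0396 to 0.0496 in SvGRP at 0 mM, and to 0.0246 to 0.0316 in WT at 150 mM against 0.0149 to 0.0283 in WT at 0 mM.

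**Figure D4:**
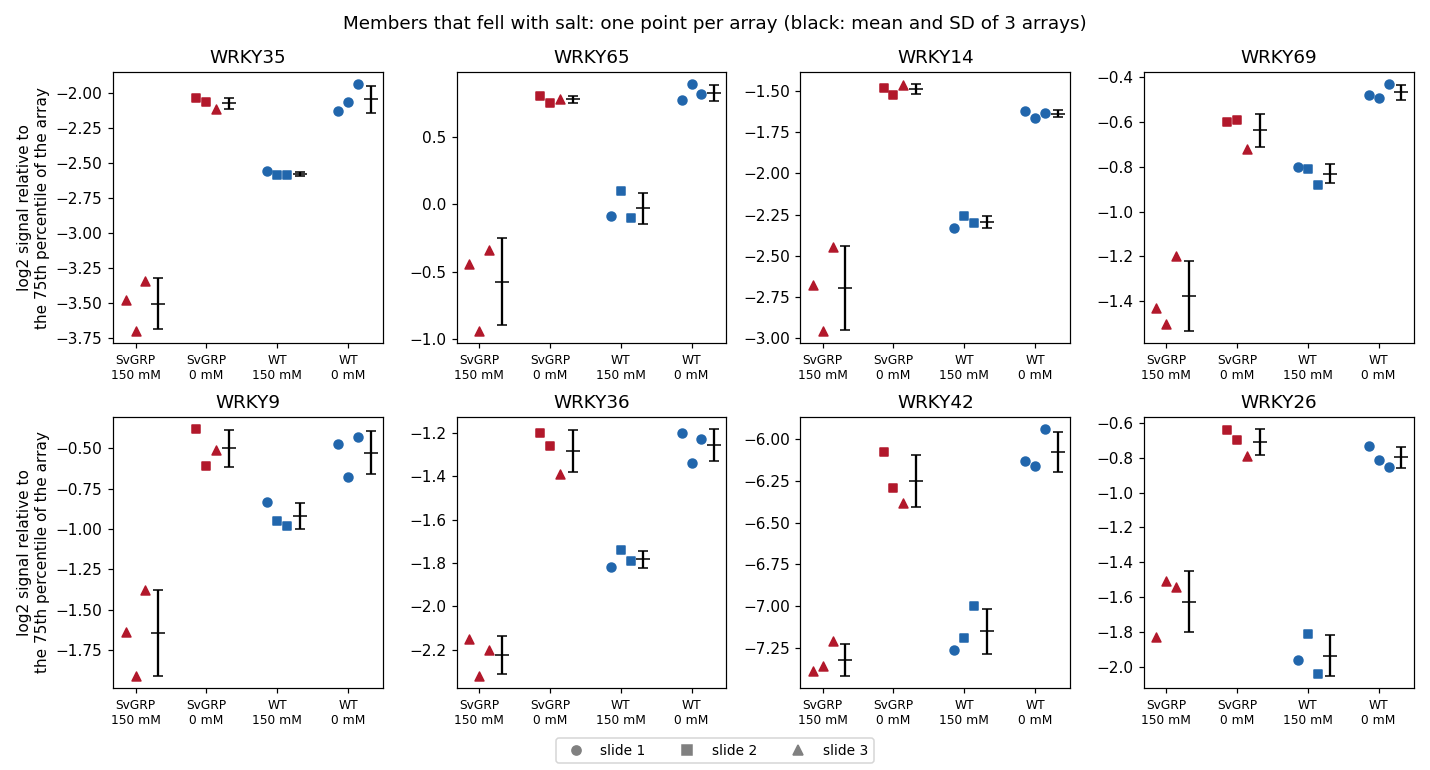
Log2 signal minus the array's 75th percentile for 8 members that fell with salt, 1 point per array, with the mean and SD of each group of 3 in black and the slide as the symbol. For WRKY35, WRKY65, WRKY14, WRKY69, WRKY9 and WRKY36 the SvGRP arrays at 150 mM lie below every WT array at 150 mM, while for WRKY26 some of them lie above. Over all features, 40.2% had no overlap between the genotypes at 150 mM.

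Group III held the steepest rise. WRKY30 (AT5G24110), known as a marker of reactive oxygen in seedlings, stood at -0.45, 0.59 and -0.31 in SvGRP at 150 mM against -7.14, -5.99 and -6.15 in SvGRP at 0 mM, and -0.86, -0.45 and -0.67 in WT at 150 mM against -7.16, -8.3 and -9.06 in WT at 0 mM. Every treated array was far above every untreated one, and 1 of the 3 WT arrays at 0 mM was above the dim threshold. The rise was 6.37 ± 0.48 (adjusted p = 2.5e-06, slide-fitted 6.09) in SvGRP and 7.51 ± 0.48 (adjusted p = 2.2e-06, slide-fitted 7.31) in WT. WRKY46 (AT2G46400), which acts in osmotic stress, guard cells and basal defence, stood at -1.74, -1.6 and -1.22 in SvGRP at 150 mM against -4.79, -3.43 and -4.33 in SvGRP at 0 mM, and -1.63, -1.49 and -1.68 in WT at 150 mM against -3.09, -4.3 and -4.5 in WT at 0 mM. Its untreated arrays spread widely in both genotypes, and all lay below the treated ones. The rise was 2.66 ± 0.4 (adjusted p = 0.00021, slide-fitted 2.81) in SvGRP and 2.36 ± 0.4 (adjusted p = 0.00056, slide-fitted 2.34) in WT.

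WRKY53 (AT4G23810), a central regulator of leaf senescence, stood at -2.18, -1.96 and -2.24 in SvGRP at 150 mM against -4.62, -4.49 and -3.8 in SvGRP at 0 mM, and -2.03, -2.2 and -2.31 in WT at 150 mM against -2.85, -3.97 and -4.01 in WT at 0 mM. WT replicate 1 at 0 mM was the highest untreated array, and no treated array was as low. The rise was 2.18 ± 0.31 (adjusted p = 0.00014, slide-fitted 1.67) in SvGRP and 1.43 ± 0.31 (adjusted p = 0.0024, slide-fitted 1.58) in WT. WRKY66 (AT1G80590) stood at -6.57, -6.19 and -5.76 in SvGRP at 150 mM against -9.59, -10.01 and -9.91 in SvGRP at 0 mM, and -6.33, -6.05 and -6.29 in WT at 150 mM against -7.53, -9.28 and -9.05 in WT at 0 mM. In SvGRP it was below the dim threshold on all 3 arrays at 0 mM and was at least 2.93-fold higher with salt, with a fitted change of 3.66 ± 0.4 (adjusted p = 2.4e-05, slide-fitted 3.74). In WT, where 1 array at 0 mM was above the threshold, the change was 2.4 ± 0.4 (adjusted p = 0.00051, slide-fitted 2.29).

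WRKY67 (AT1G66550) stood at -6.92, -5.79 and -4.17 in SvGRP at 150 mM against -7.45, -8.3 and -8.6 in SvGRP at 0 mM, and -5.13, -4.79 and -5.93 in WT at 150 mM against -8.17, -9.22 and -9 in WT at 0 mM. It was below the threshold on all 3 WT and 2 of the 3 SvGRP arrays at 0 mM. It was at least 6.64-fold higher with salt in WT, with a fitted change of 3.51 ± 0.63 (adjusted p = 0.00085, slide-fitted 3.66), and its change was 2.49 ± 0.63 (adjusted p = 0.0055, slide-fitted 2.98) in SvGRP. WRKY55, which acts in leaf senescence, rose by 2.22 ± 0.31 in SvGRP and 3.01 ± 0.31 in WT, and WRKY41, a seed dormancy gene, by 1.75 ± 0.31 and 2.31 ± 0.31. WRKY38 rose by 2.55 ± 0.45 in SvGRP and 1.81 ± 0.45 in WT, where the slide-fitted value of 1.17 was not called (adjusted p = 0.16). WRKY62, which with WRKY38 restrains basal defence, changed by 0.08 ± 0.59 in SvGRP and 0.08 ± 0.59 in WT, not called, and was above the dim threshold on 8 of 12 arrays. WRKY19 (AT4G12020), placed in no group here as a fusion of a WRKY domain with resistance protein and kinase domains, stood at -3.78, -3.53 and -3.45 in SvGRP at 150 mM against -3.51, -3.49 and -3.58 in SvGRP at 0 mM, and -4, -3.8 and -3.94 in WT at 150 mM against -3.75, -3.81 and -3.74 in WT at 0 mM. It was not called for salt, with changes of -0.06 in SvGRP and -0.15 in WT.

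The genotypes were then compared at the same NaCl level. At 0 mM, 5 members (8.06%) were higher in SvGRP, as were 10.4% of all features, and 3 members (4.84%) were lower, as were 10.8% of all features. The members' median difference was 0.03, as over all features. Arrays of the genotypes did not overlap for 32.3% of members, beside 50.3% of all features. The E1A scaling moved the median of all features to 0.39 and gave 28 members higher and 1 lower. Of the 26794 features, 15887 were then higher and 711 lower. With slide in the fit, no member was called in limma, while 0.911% of all features were.

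Among the called members, WRKY40 and WRKY33 differed most toward lower signal in SvGRP at 0 mM. From the levels given above, WRKY40 differed by -1.98 ± 0.36 (adjusted p = 0.0051, slide-fitted -1.79 with adjusted p = 0.28) and WRKY33 by -0.84 ± 0.19 (adjusted p = 0.014, slide-fitted -0.9 with adjusted p = 0.35). WRKY40 lost its call among the alternatives only with slide in the fit. WRKY33 lost it there too, under E1A scaling, which gave -0.48 with an adjusted p of 0.11, and when SvGRP replicate 1 at 0 mM was left out (-0.78, adjusted p = 0.0515). The third member lower in SvGRP at 0 mM was WRKY2, with -0.27 ± 0.07 (adjusted p = 0.026, slide-fitted -0.18 with adjusted p = 0.66). Its call ended without any 1 of the 6 arrays compared (-0.29 to -0.25, adjusted p up to 0.084), and its difference was 0.09 under E1A scaling.

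Higher in SvGRP at 0 mM was WRKY30, by 1.75 ± 0.48 (adjusted p = 0.03, slide-fitted 1.31 with adjusted p = 0.61), close to the dim threshold in WT. The call ended without replicate 2 or 3 of either untreated group (1.31 to 1.68, adjusted p up to 0.10). WRKY49 differed by 0.66 ± 0.16 (adjusted p = 0.017, slide-fitted 0.43 with adjusted p = 0.6), lost without WT replicate 1 or 3 or SvGRP replicate 2 (0.58 to 0.61, adjusted p up to 0.065). WRKY29 differed by 0.42 ± 0.1 (adjusted p = 0.015, slide-fitted 0.1 with adjusted p = 0.78), lost without SvGRP replicate 2 (0.37, adjusted p = 0.061). WRKY31 differed by 0.4 ± 0.11 (adjusted p = 0.033, slide-fitted 0.59 with adjusted p = 0.25), lost without replicate 2 or 3 of WT or 1 or 2 of SvGRP (0.31 to 0.42, adjusted p up to 0.12). The smallest was WRKY4 with 0.24 ± 0.06 (adjusted p = 0.019, slide-fitted 0.25 with adjusted p = 0.42), lost without WT replicate 1 or any 1 of the SvGRP arrays (0.20 to 0.25, adjusted p up to 0.069).

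At 150 mM, 3 members were higher in SvGRP (10.2% of all features) and 9 were lower (18.7%). The median difference was 0.02 over the members and -0.02 over all features. Arrays of the genotypes did not overlap for 25.8% of members, beside 40.2% of all features. Under E1A scaling the counts were 2 higher and 3 lower, beside 3673 and 1924 of 26794 features. With slide in the fit, no member was called in limma, while 0.892% of all features were. WRKY40 and WRKY33, called lower in SvGRP without salt, were not called with salt (0.26 ± 0.36 and 0.15 ± 0.19).

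Of the 9 lower members, 8 belong to groups IIb, IId and IIe and also fell with salt in SvGRP, and the other was WRKY2. Both comparisons use the same SvGRP arrays at 150 mM, so their agreement is partly built in. WRKY35 differed by -0.92 ± 0.08 (adjusted p = 0.00012, slide-fitted -0.85 with adjusted p = 0.074) and lost its call among the alternatives with slide in the fit and at the 2-fold threshold, as did WRKY9 with -0.72 ± 0.13 (adjusted p = 0.003, slide-fitted -0.66 with adjusted p = 0.27) and WRKY69 with -0.54 ± 0.08 (adjusted p = 0.00097, slide-fitted -0.4 with adjusted p = 0.25). WRKY36 differed by -0.44 ± 0.07 (adjusted p = 0.0014, slide-fitted -0.3 with adjusted p = 0.28) and stood at -0.28 under E1A scaling (adjusted p = 0.10). The remaining differences were those of WRKY65 (-0.55 ± 0.13), WRKY14 (-0.4 ± 0.1), WRKY74 (-0.37 ± 0.09), WRKY39 (-0.24 ± 0.07) and WRKY2 (-0.32 ± 0.07). Without WT replicate 2 at 150 mM, WRKY65 (-0.48, adjusted p = 0.0544) and WRKY14 (-0.38, adjusted p = 0.061) lost their calls. WRKY74 lost its call without replicate 2 of either treated group (-0.34 to -0.32, adjusted p up to 0.057), and WRKY39 without WT replicate 2 or 3 or SvGRP replicate 1 or 2 (-0.24 to -0.18, adjusted p up to 0.082).

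WRKY29 was higher in SvGRP at 150 mM by 0.41 ± 0.1 (adjusted p = 0.013, slide-fitted 0.39 with adjusted p = 0.2), the same size as at 0 mM. WRKY19 was higher by 0.32 ± 0.08 (adjusted p = 0.018, slide-fitted 0.37 with adjusted p = 0.33), lost without WT replicate 1 or SvGRP replicate 2 or 3 (0.26 to 0.30, adjusted p up to 0.06). WRKY26 was higher by 0.31 ± 0.09 (adjusted p = 0.032, slide-fitted 0.42 with adjusted p = 0.33), with 1 SvGRP array among the WT ones, and lost its call without WT replicate 1 or 3 or SvGRP replicate 2 or 3 (0.25 to 0.30, adjusted p up to 0.10).

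**Figure D5:**
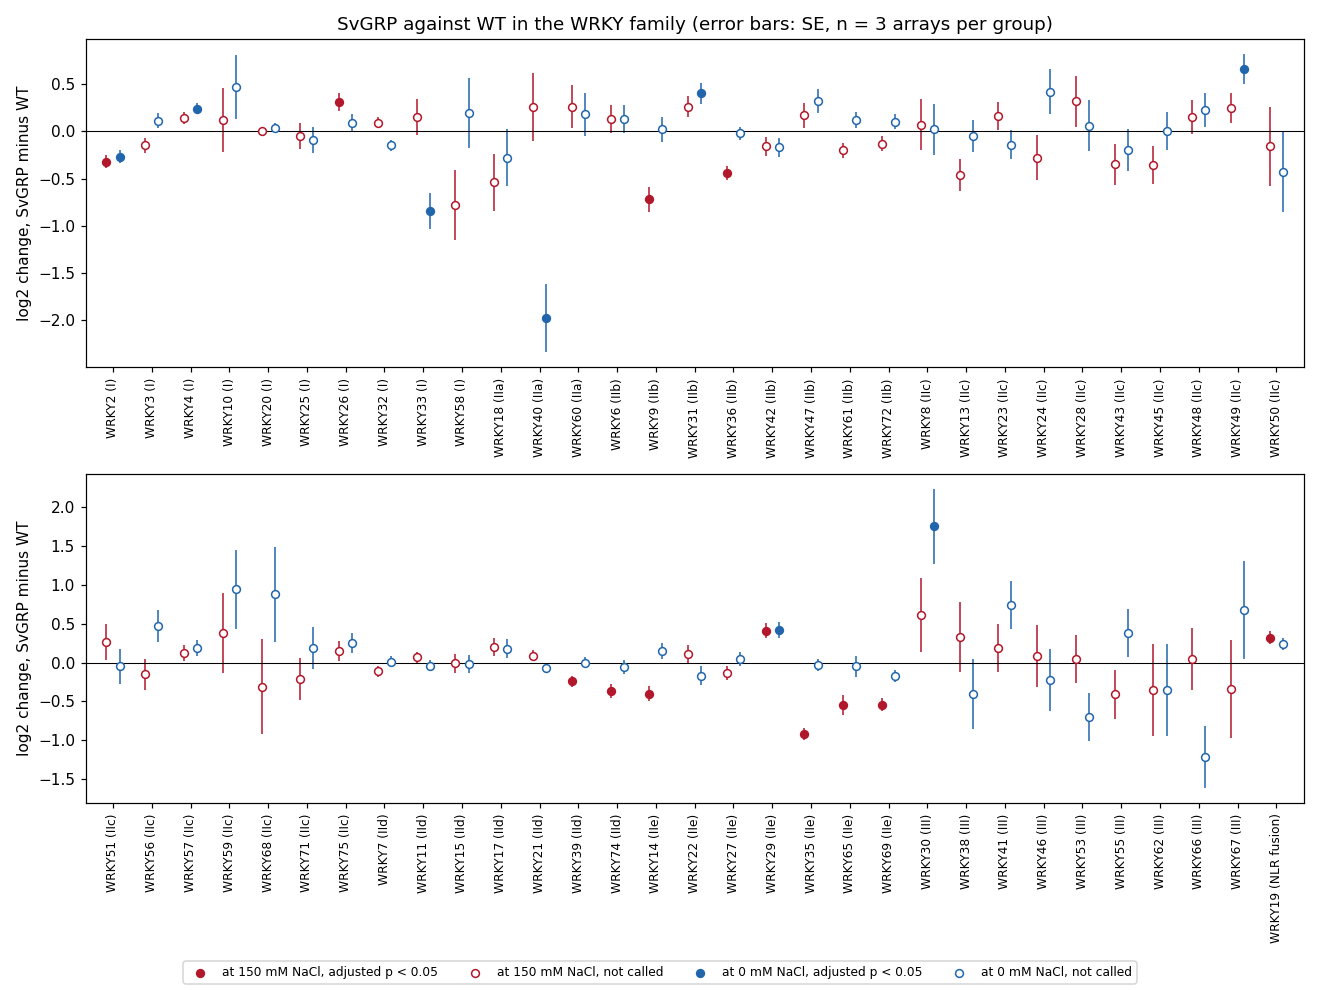
Log2 difference between SvGRP and WT of each of the 62 members tested at 150 mM (red) and 0 mM NaCl (blue), with standard errors from 3 arrays per group. Filled points have an adjusted p under 0.05 without slide in the fit. WRKY40 stands lowest at 0 mM (-1.98), and WRKY35 (-0.92) and WRKY9 (-0.72) are the lowest called members at 150 mM.

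The salt responses of the genotypes were compared directly as the interaction, the change in SvGRP minus the change in WT. The interaction uses the same arrays as the comparisons at each NaCl level, so calls in both are not independent. Of the members, 2 responded more positively in SvGRP (2.52% of all features did) and 4 more negatively (6.45%). The median was -0.11 over the members and -0.04 over all features. The counts were 1 and 6 under E1A scaling, beside 182 and 2663 of 26794 features, and the median of all features moved to -0.24. With slide in the fit, no member was called in limma, against 0.515% of all features. The more positive responses were those of WRKY40, with 2.24 ± 0.5 (adjusted p = 0.028, slide-fitted 1.59 with adjusted p = 0.41), and WRKY33, with 0.98 ± 0.27 (adjusted p = 0.0497, slide-fitted 1.03 with adjusted p = 0.36). For both members the genotypes overlapped at 150 mM, and SvGRP was lower at 0 mM.

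The more negative responses were those of WRKY35, with -0.89 ± 0.12 (adjusted p = 0.0057, slide-fitted -0.87 with adjusted p = 0.12), WRKY9, with -0.74 ± 0.18 (adjusted p = 0.034, slide-fitted -0.82 with adjusted p = 0.28), WRKY14, with -0.55 ± 0.15 (adjusted p = 0.0475, slide-fitted -0.54 with adjusted p = 0.39), and WRKY36, with -0.42 ± 0.09 (adjusted p = 0.028, slide-fitted -0.28 with adjusted p = 0.43). None of the 4 was called between genotypes at 0 mM, and all 4 were called lower in SvGRP at 150 mM, on arrays that the interaction shares. Under E1A scaling all 4 were called higher in SvGRP at 0 mM, and WRKY14 and WRKY36 were no longer called at 150 mM. WRKY35 kept its call without any single array, and slide in the fit and the 2-fold threshold ended it. The calls of the other 5 members with an interaction ended when single arrays were left out, 6 of the 12 for WRKY40 (2.11 to 2.32, adjusted p up to 0.072) and WRKY36 (-0.43 to -0.37, adjusted p up to 0.073), 9 for WRKY9 (-0.80 to -0.67, adjusted p up to 0.085), and 10 for WRKY33 (0.78 to 1.05, adjusted p up to 0.11) and WRKY14 (-0.56 to -0.53, adjusted p up to 0.11).

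Proteins that work with WRKY factors were read from 3 lists. Over all features, 31% were called higher and 37.8% lower with salt in SvGRP (median -0.07), and 33.1% and 30.2% in WT (median 0.04). VQ-motif proteins bind WRKY domains of groups I and IIc, and 5 of 7 tested rose and 1 fell in SvGRP (median 0.72), and 4 rose in WT (median 0.76). SIB1 (AT3G56710), an activating partner of WRKY33, rose with salt in SvGRP by 3.08 ± 0.22 (adjusted p = 2e-06, slide-fitted 3.17) and had a change of -0.32 ± 0.22 (adjusted p = 0.23, slide-fitted -0.64) in WT. At 0 mM its difference between SvGRP and WT was -3.93 ± 0.22 (adjusted p = 7.3e-06, slide-fitted -4.36). Its interaction of 3.41 ± 0.31 (adjusted p = 0.0015, slide-fitted 3.82) was called with slide in the fit too. Of the 7 tested, SIB1 alone had a called interaction, beside 8.96% of all features. MKS1 (AT3G18690), which links MPK4 to WRKY33 and WRKY25, rose by 1.4 ± 0.17 in SvGRP and 0.88 ± 0.17 in WT, where the slide-fitted 0.48 was not called (adjusted p = 0.052), and CAMBP25 by 1.3 ± 0.15 and 1.19 ± 0.15. VQ9, the partner of WRKY8, rose by 0.35 ± 0.13 in SvGRP, a call that ended at a slide-fitted 0.38 (adjusted p = 0.16), and had a change of 0.06 ± 0.13 in WT, not called.

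Of 10 genes of the MAP kinase cascade that acts on WRKY proteins, 8 rose and 2 fell in SvGRP (median 0.37), and 7 rose and 2 fell in WT (median 0.32). Of all features, 68.8% were called with salt in SvGRP (median -0.07) and 63.2% in WT (median 0.04). MPK11 (AT1G01560) rose by 3.55 ± 0.32 in SvGRP and 2.94 ± 0.32 in WT, while MPK3 (AT3G45640) was called lower, with -0.28 ± 0.11 and -0.39 ± 0.11. Neither MPK3 call held with slide in the fit (-0.23 in SvGRP, adjusted p = 0.28, and -0.38 in WT, adjusted p = 0.095). MKK9 (AT1G73500), an activator of MPK3 and MPK6, rose in SvGRP by 1.31 ± 0.09 (adjusted p = 1.4e-06, slide-fitted 1.39), had a change of -0.05 ± 0.09 (adjusted p = 0.62, slide-fitted 0.14) in WT and differed between SvGRP and WT at 0 mM by -1.47 ± 0.09 (adjusted p = 1.1e-05, slide-fitted -1.14). Its interaction was 1.36 ± 0.12 (adjusted p = 0.0014, slide-fitted 1.26). Of the 10 cascade genes, MKK9 alone had a called interaction, beside 8.96% of all features.

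Of 10 tested genes described as targets of WRKY proteins, 7 rose and 2 fell in SvGRP (median 1.80), and 8 rose and 2 fell in WT (median 2.05). Called with salt were 68.8% of all features in SvGRP (median -0.07) and 63.2% in WT (median 0.04). The ethylene synthesis gene ACS2 (AT1G01480) rose by 4.65 ± 0.29 in SvGRP and 4.72 ± 0.29 in WT. ACS6 (AT4G11280), of the same step and a target of WRKY33, rose by 3.09 ± 0.11 in SvGRP and 1.42 ± 0.11 in WT, differed between SvGRP and WT at 0 mM by -1.55 ± 0.11 (adjusted p = 3.8e-05, slide-fitted -1.65), and had an interaction of 1.67 ± 0.16 (adjusted p = 0.0016, slide-fitted 1.8). PHO1 (AT3G23430), repressed by WRKY6 and WRKY42, fell in both genotypes (-1.95 ± 0.12 in SvGRP, -1.68 ± 0.12 in WT), beside a rise of WRKY6 and a fall of WRKY42. PAD3 (AT3G26830), for the last step of camalexin synthesis, rose by 1 ± 0.21 in SvGRP and 2.05 ± 0.21 in WT. The SvGRP call ended at a slide-fitted 0.84 (adjusted p = 0.0535). At 150 mM PAD3 was called lower in SvGRP (-0.76 ± 0.21, adjusted p = 0.026, slide-fitted -1.09). Its interaction of -1.05 ± 0.3 was not called (adjusted p = 0.059). The target FRK1 was called higher in SvGRP at 0 mM (1.13 ± 0.34, adjusted p = 0.043, slide-fitted 0.51). Of the 10 targets tested, ACS6 alone had a called interaction, beside 8.96% of all features.

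Of the 64 members, 39 had 1 probe, 23 had 2 and 2 had 3. Among members called for salt in SvGRP, 16 had a further probe above the dim threshold on all 12 arrays, and 17 of 17 such probes changed in the called direction, as did 16 of 16 for salt in WT. Among members called between genotypes at 150 mM, 2 of 3 did, the exception being WRKY39.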

How the data were processed

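Per the file headers, the deposited array files hold the intensity of each probe as the scanner software's processed signal, on a linear scale without scaling between arrays. Per the submitters' processing notes the software was Agilent Feature Extraction, and per the labels' protocols total RNA was labelled with Cy3. The deposited series table holds log2 values, which matched, within 0.000389, the log2 signal less the 75th percentile of its array after centring on each probe's median, and served as an alternative.

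Of 43663 values per array, 60 were controls. Names came from the probe annotation and RefSeq (assembly TAIR10.1, for names only), and 87 of the family's 91 probes matched by accession and 4 by symbol. Values analysed were log2 intensities less the 75th percentile of their array. Files carry no flags or background columns, so no background correction was tried, and a probe was kept when above the array's 20th percentile (the dim threshold) on all arrays of at least 1 group. Each gene was represented by its brightest probe on average. limma 3.58.1 in R 4.3.3 fitted 4 group means to the 26794 features that passed, and the code was tested on simulated data. Changes against a group that was dim on all its arrays are bounds, at least N-fold, computed against the dim threshold.

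The members and lists were chosen with earlier results of these data known. Values in every array are given for the 5 largest rises and falls among called members without overlap in each comparison, and for 14 members set by name. Alternatives were other scalings (quantile, array median, E1A spike-ins), the series table, no or a strict dim filter, slide as a fixed term or a random effect, a replicate block, each array left out, the mean of all probes, a trended robust variance, only the groups compared and a 2-fold threshold.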

Additional observations from a re-analysis of the deposited data

Results flagged for a closer look

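By the interaction term of limma without slide in the fit, 6 of the 62 members were called (9.68%, beside 8.96% of all features). The salt response was more positive in SvGRP than in WT for WRKY40, by 2.24, and for WRKY33, by 0.98. It was more negative in SvGRP for WRKY35, at -0.89, WRKY9, at -0.74, WRKY14, at -0.55, and WRKY36, at -0.42. With slide in the fit the 6 values were 1.59, 1.03, -0.87, -0.82, -0.54 and -0.28 in the same order, and none was called. The genotypes at one NaCl level lay on different slides, so slide and genotype cannot be told apart within a level.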

How the results depend on the processing

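The rises with salt kept within 1.5 times their counts of 29 in SvGRP and 32 in WT under all alternatives run. The falls were 19 in SvGRP and 13 in WT, against 11 and 3 under E1A scaling and 6 and 2 at 2-fold. SvGRP against WT at 0 mM gave 5 members higher and 3 lower, but 28 and 1 under E1A scaling, 0 and 0 with slide as a fixed block, 10 and 7 with it as a random block (whose estimated correlation was -0.16), 1 and 1 at 2-fold, and 0 to 7 and 1 to 4 with each array left out. At 150 mM it gave 3 higher and 9 lower, but 5 higher with the array median, 3 lower under E1A scaling, 0 and 0 with slide fixed, 14 lower with slide random, 0 and 5 with only the groups compared, 0 and 0 at 2-fold, and 1 to 7 and 5 to 9 with each array left out. The interaction gave 2 higher and 4 lower, but 1 higher with quantile normalization, under E1A scaling and without a dim filter, 0 and 0 with slide fixed, 12 lower with slide random, 0 and 2 with the replicate block, 1 and 0 at 2-fold, and 0 to 3 and 1 to 6 with each array left out. The cause of these moves was not tested, except that the 2-fold setting only adds a threshold.

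Deviations of same-numbered arrays from their group means correlated between -0.18 and 0.22, over 0.1 in 2 of 18 pairs. Most such pairs lay on different slides, so these values cannot decide whether same-numbered replicates were grown or handled together. The labels do not say. With the replicate block the counts were 29 and 18 for salt in SvGRP, 32 and 13 in WT, 4 and 2 at 0 mM and 2 and 9 at 150 mM.

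E1A scaling also turned some single values: salt in WT to 0.03 for WRKY9, 0.06 for WRKY69, 0.20 for WRKY7, 0.31 for WRKY3, 0.34 for WRKY4, 0.35 for WRKY11 and 0.43 for WRKY21, salt in SvGRP to 0.04 for WRKY4, and SvGRP against WT at 0 mM to 0.09 for WRKY2, 0.29 for WRKY21, 0.32 for WRKY11, 0.33 for WRKY35, 0.34 for WRKY36 and 0.35 for WRKY39. Over all features, the share of calls that were higher was 45.1% for salt in SvGRP (64.7% under E1A scaling), 52.3% in WT (86.0%), 49.2% at 0 mM (95.7%), 35.4% at 150 mM (65.6%, 53.5% with the array median and 50.1% with quantile normalization) and 28.1% for the interaction (6.40%). Signal near the dim threshold limits WRKY10, WRKY30, WRKY50, WRKY59, WRKY62, WRKY66, WRKY67 and WRKY68, which were above it on 7 to 11 arrays. WRKY42 was above it on all 12 arrays but not far above it at 150 mM.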

Other observations

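Over the 29 members that rose with salt in both genotypes, single arrays stood at the edge of their group for many members. SvGRP replicate 1 at 150 mM was the lowest of its group for 20 of them, WT replicate 1 at 150 mM was the lowest for 18 and WT replicate 2 the highest for 20, and WT replicate 1 at 0 mM was the highest for 20. WT replicate 1 at 150 mM lay on another slide than the rest of its group. Such counts were not made over all features, so whether these arrays stood out beyond the family was not tested. Members that rise together are also not independent of each other. Over the 13 members that fell in both genotypes, no array was the highest or the lowest of its group for more than 9.

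A further probe of WRKY72 gave a change with salt of -0.40 in SvGRP and -1.01 in WT, where the probe used gave -0.77 in SvGRP and -0.54 in WT, so the order of the genotypes depended on the probe.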
